A study of Mus musculus with 9 samples.

Results

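Small nucleolar RNAs (snoRNAs) of both classes were measured in the intestinal tract of mice, most of which drank dextran sulfate sodium (DSS), an agent that damages the lining of the gut. Members were the rows of the deposited expression table whose gene name starts with Snora (box H/ACA class) or Snord (box C/D class). There were 141 such genes among 55468, of which 42 were H/ACA and 99 were C/D. At day 28, libraries came from mice on a methionine-deficient diet (1K), a tryptophan- and niacin-deficient diet (2K), a diet lacking all 3 nutrients (3K) or a normal diet (R), all drinking DSS from day 18. At day 33, they came from mice returned at day 28 from those diets to the normal diet (1KR, 2KR and 3KR) and from mice on the normal diet throughout (RR), again with DSS from day 18. The control (C) had a normal diet without DSS and was taken at day 34. Each condition has 1 library, so differences between a pair of libraries carry no test, and the sources used here do not give whether a library holds 1 animal or a pool, nor strain, age or sex.

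Box C/D snoRNAs guide 2′-O-methylation of ribosomal and spliceosomal RNA with the methyltransferase fibrillarin, and box H/ACA snoRNAs guide the conversion of uridine to pseudouridine with the enzyme dyskerin. A few, such as Snord118 (U8), Snord22 (U22, in frog oocytes) and Snora73 (U17), are known instead for their part in cutting the ribosomal RNA precursor. Most mammalian snoRNAs lie in introns of other genes and are released from the spliced intron, so that snoRNA and host RNA come from 1 transcript but are then degraded separately. Snord118 and Snord13 are known exceptions with promoters of their own.

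The sequences of 6 C/D members are shown because the C/D results turn on them. Snord17, Snord15b and Snord118 carried high values in every library, whereas Snord32a, Snord33 and Snord34 are short neighbours in the ribosomal protein gene Rpl13a. Capitals mark box C (TGATGA, searched in the first 25 bases) and box D (the last CTGA within the last 20 bases), read on the sense strand.
Snord17: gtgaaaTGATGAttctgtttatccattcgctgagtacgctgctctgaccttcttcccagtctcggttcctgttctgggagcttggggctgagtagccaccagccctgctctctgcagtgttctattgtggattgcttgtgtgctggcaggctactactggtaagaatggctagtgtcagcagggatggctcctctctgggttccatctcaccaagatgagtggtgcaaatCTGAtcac
Snord15b: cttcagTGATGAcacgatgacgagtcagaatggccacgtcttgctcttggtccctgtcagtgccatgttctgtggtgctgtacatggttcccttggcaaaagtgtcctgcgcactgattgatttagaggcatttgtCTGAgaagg
Snord118: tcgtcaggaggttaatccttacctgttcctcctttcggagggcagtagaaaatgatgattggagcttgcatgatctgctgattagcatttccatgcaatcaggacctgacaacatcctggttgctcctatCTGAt
Snord32a: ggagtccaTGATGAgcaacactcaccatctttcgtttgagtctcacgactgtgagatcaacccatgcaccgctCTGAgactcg
Snord33: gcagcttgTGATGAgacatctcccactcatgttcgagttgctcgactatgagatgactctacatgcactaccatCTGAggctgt
Snord34: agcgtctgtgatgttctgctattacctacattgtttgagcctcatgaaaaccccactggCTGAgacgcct
These are GENCODE M21 transcripts of GRCm38. Snord17 (ENSMUSG00000077714) lies on the minus strand at chr2:144265979-144266216 in an intron of Snx5, and Snord15b (ENSMUSG00000064966) on the minus strand at chr7:99479563-99479707 within Rps3. Snord118 (ENSMUSG00000064899) lies on the plus strand at chr11:69073427-69073561, inside no other gene of the same strand. Snord32a, Snord33 and Snord34 lie on the minus strand at chr7:45127382-45127464, chr7:45126864-45126947 and chr7:45126601-45126670.

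The sequences of 3 H/ACA members are shown for contrast, since among the H/ACA members averaging over 100 FPKM the ratio of the highest to the lowest library was largest for Snora81 (31.2) and smallest for Snora73b (3.74), and Snora23 is compared with its host Ipo7 further on. Capitals mark the ACA box, searched in the last 10 bases.
Snora81: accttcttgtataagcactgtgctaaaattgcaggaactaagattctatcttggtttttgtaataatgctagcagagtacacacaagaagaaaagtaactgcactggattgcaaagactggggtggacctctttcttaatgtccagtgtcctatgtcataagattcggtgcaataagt
Snora23: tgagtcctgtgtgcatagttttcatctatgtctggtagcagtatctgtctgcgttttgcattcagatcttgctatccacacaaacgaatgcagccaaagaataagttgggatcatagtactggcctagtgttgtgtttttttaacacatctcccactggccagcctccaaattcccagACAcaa
Snora73b: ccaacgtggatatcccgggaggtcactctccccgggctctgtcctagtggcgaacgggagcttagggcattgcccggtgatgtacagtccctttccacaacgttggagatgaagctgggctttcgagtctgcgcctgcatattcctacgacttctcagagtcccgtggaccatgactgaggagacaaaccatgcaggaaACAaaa
Snora81 (ENSMUSG00000087935) lies on the plus strand at chr16:23110756-23110933 in Eif4a2, Snora23 (ENSMUSG00000064451) on the plus strand at chr7:110046364-110046547 in an intron of Ipo7, and Snora73b (ENSMUSG00000065353) on the minus strand at chr4:132352322-132352526 in Snhg3. Snora81 held no ACA in that window.

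Over the whole classes, box C as spelled above was found in 70 of 99 C/D members and in 0 of 42 H/ACA members, against 54 of 7234 other GENCODE transcripts of 60 to 260 bases (0.746%). Box D was found in 97 of 99 C/D members and 5 of 42 H/ACA members, against 9.22% of those transcripts. An ACA ending exactly 3 bases before the 3′ end was found in 35 of 42 H/ACA members and in 0 of 99 C/D members, against 1.96% of the other transcripts. The names and the box sequences thus sorted the members in the same way. Both boxes were as frequent among C/D members listed at 0 in all 9 libraries (56 of 83, 67.5%) as among those averaging 5 FPKM or more (6 of 9, 66.7%).

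Detection differed sharply between the classes and followed length. Of the C/D members, 83 of 99 were listed at 0 in all 9 libraries and 6 were above 0 in every library, whereas of the H/ACA members 4 of 42 were listed at 0 throughout and 15 were above 0 in every library. C/D members are shorter, with a median length of 84 nt (64 to 238 nt) against 132.5 nt (121 to 205 nt) for H/ACA members. Of the 87 C/D members under 100 nt, 79 were listed at 0 in every library, and all 5 C/D members of 120 nt or more were above 0 in every library.

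The same dependence held outside the classes. Other small RNA genes under 100 nt were listed at 0 in every library in 2025 of 2040 cases (99.3%), against 1150 of 1770 (65%) at 120 to 260 nt. The zeros of short C/D members thus fell in a length range in which 99.3% of other small RNA genes were at 0, and they are not read as absence of expression. Rpl13a is an example. Its mean over the 9 libraries was 636 FPKM, yet Snord33 and Snord34 within it were listed at 0 in all 9 libraries, and Snord32a was above 0 in 4 (64.5 FPKM in 1K, 26.9 in 3K, 50.2 in 3KR and 25.2 in RR). The 47 distinct genes that contain C/D members listed at 0 had a median of their means of 34.4 FPKM, and 17 of them exceeded 50 FPKM.

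**Figure D1:**
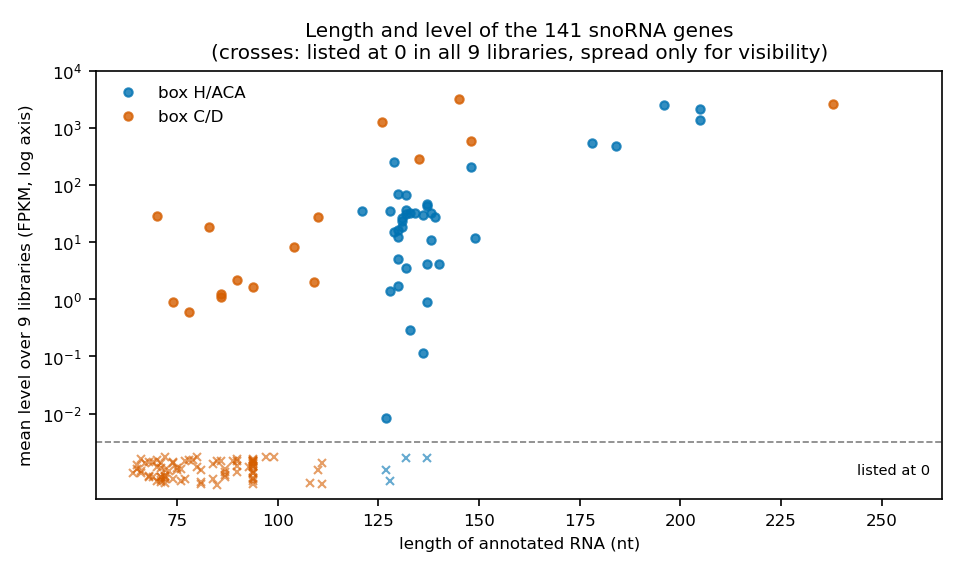
Length of the annotated RNA in nt (x axis) against the mean level over 9 libraries in FPKM (log y axis) for H/ACA (blue) and C/D (orange) members; crosses below the dashed line are members listed at 0 in every library. C/D members under 100 nt were listed at 0 in 79 of 87 cases, while all 5 of at least 120 nt lay above the line.

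Values are FPKM (fragments per kilobase of transcript and per 1000000 mapped fragments), which the deposited software corrects for fragment length. For short RNAs this correction is large. On a gene of 130 nt a single fragment was worth between 4.44 FPKM (2KR) and 9.73 FPKM (3KR), against 0.0176 FPKM on a gene of 2000 nt in R. On 240 nt, close to the length of Snord17, a fragment was worth 1.19 FPKM in 3KR and 0.600 FPKM in RR. Levels of members of different length thus rest on very different numbers of fragments. The depth recovered from these steps was 15.6 M fragments in 3KR (M, 1000000) and 24.3 to 34.3 M in the other 8 libraries, so the 3KR library was the shallowest. Members with at least 20 fragments numbered 16 in 3KR and 10 to 12 in each of the other libraries, and the text leads with the 12 members whose mean exceeded 100 FPKM.

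Among C/D members the 5 most abundant held between 96.7% and 99.6% of the class's summed FPKM in every library. Snord17 measured 664 FPKM in 1K, 995 in 2K, 731 in 3K and 864 in R, then 657 in 1KR, 1747 in 2KR, 13122 in 3KR and 3008 in RR, and 2393 in C. The 3KR library was 4.36 times RR, the next highest, and 1KR was the lowest of all 9. Recovered fragments of Snord17 numbered 10706 in 3KR and 4888 in RR. Snord15b, which shares the gene Rps3 with Snord15a, measured 1538 FPKM in 1K, 1612 in 2K, 2004 in 3K and 1854 in R, then 1259 in 1KR, 3147 in 2KR, 11383 in 3KR and 3536 in RR, and 3349 in C. It showed the same order at day 33, with 3KR highest and 1KR lowest, while the 4 day 28 libraries lay close together.

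Snord118, the U8 RNA needed for maturation of 5.8S and 28S ribosomal RNA, measured 81.9 FPKM in 1K, 145 in 2K, 68.3 in 3K and 58.9 in R, then 92.3 in 1KR, 128 in 2KR, 1768 in 3KR and 175 in RR, and 82.6 in C. It stood 10.1 times higher in 3KR than in RR, on 208 and 41 fragments. Its day 28 values rested on 14 to 28 fragments, so their order is weakly supported. Snord15a measured 213 FPKM in 1K, 446 in 2K, 171 in 3K and 288 in R, then 182 in 1KR, 380 in 2KR, 2654 in 3KR and 511 in RR, and 489 in C. Like its neighbour in Rps3 it was highest in 3KR, by 5.20 times over RR. Over an alignment of 152 columns Snord15a and Snord15b are 64.5% identical, with a longest shared run of 21 bases.

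Snord22, encoded in Snhg1, a spliced RNA known as a carrier of several C/D snoRNAs, departed from this picture. It measured 635 FPKM in 1K, 1532 in 2K, 1051 in 3K and 930 in R, then 1090 in 1KR, 1503 in 2KR, 2043 in 3KR and 1683 in RR, and 954 in C. The 3KR value was 1.21 times the RR value, and its whole range over the 9 libraries spanned 3.22-fold against 30.0-fold for Snord118. The remaining C/D members averaging 5 FPKM or more were sparse. Snord8 was highest in 1KR (58.7 FPKM) and RR (44.6 FPKM) and measured 17.8 FPKM in 3KR. Snord104 was above 0 only in 2K (119 FPKM), 3K (52.2 FPKM) and 2KR (88.8 FPKM). Snord13 (U13), known for base pairing with the 3′ end of 18S ribosomal RNA, reached 43.6 FPKM in 3KR and was listed at 0 in 1K, 2K, 2KR, RR and C. At their lengths of 70 to 110 nt such values stand for few fragments (1 to 7 for Snord8).

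Among H/ACA members, Snora74a (U19) led the class with 2183 FPKM in 1K, 1529 in 2K, 1490 in 3K and 1663 in R, then 1292 in 1KR, 2137 in 2KR, 8361 in 3KR and 2337 in RR, and 2172 in C. Apart from 3KR, at 3.58 times RR, its libraries lay within a narrow band with 1KR the lowest. Snora73b, a copy of U17, measured 1301 FPKM in 1K, 1140 in 2K, 1068 in 3K and 1701 in R, then 1176 in 1KR, 2821 in 2KR, 4000 in 3KR and 3789 in RR, and 2338 in C. Here 3KR and RR were near one another (1.06 times), and the low libraries were those of day 28 and 1KR. Snora73a, 96.6% identical to Snora73b with a shared run of 56 bases, measured 973 FPKM in 1K, 704 in 2K, 753 in 3K and 948 in R, then 826 in 1KR, 1737 in 2KR, 2960 in 3KR and 2136 in RR, and 1403 in C. Fragments of the U17 copies may have been divided between both genes, so their sum is safer than either value.

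Snora81 measured 192 FPKM in 1K, 307 in 2K, 136 in 3K and 110 in R, then 194 in 1KR, 188 in 2KR, 3431 in 3KR and 225 in RR, and 184 in C. Only the 3KR library stood out, at 15.2 times RR on about 1069 and 140 fragments. Snora23 measured 197 FPKM in 1K, 199 in 2K, 139 in 3K and 170 in R, then 215 in 1KR, 351 in 2KR, 2372 in 3KR and 346 in RR, and 459 in C. It too was far higher in 3KR than in any other library, by 6.85 times over RR. Snora44, encoded in Snhg12, reached 1003 FPKM in 3KR and 250 in RR and lay between 57.9 (2K) and 267 (C) in the other 7 libraries. Snora57 reached 864 FPKM in 3KR and 283 in RR and lay between 33.7 (2K) and 204 (2KR) in the others. Both repeated the order of the longer members with fewer fragments, 100 and 50 for Snora44 and 141 and 92 for Snora57 in 3KR and RR.

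**Figure D2:**
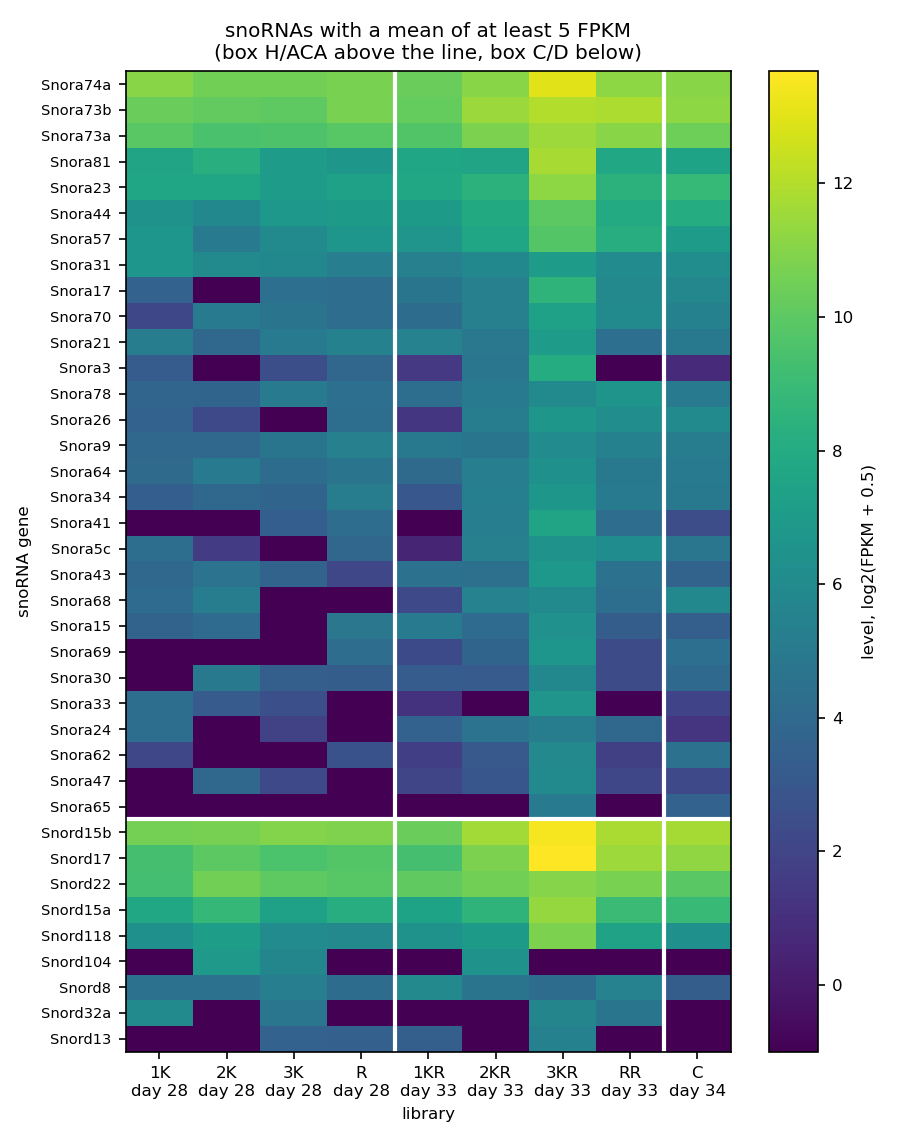
Level of the 38 members averaging 5 FPKM or more, as log2(FPKM + 0.5) in colour, by library (columns, grouped by day) and member (rows, H/ACA above the white line and C/D below it, each by falling mean). The 3KR column is the brightest in 34 of the 38 rows, and the darkest cells are members listed at 0.

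Across the 38 members averaging 5 FPKM or more, the highest library was 3KR in 28 of 29 H/ACA members and in 6 of 9 C/D members. Since 3KR itself raises that mean, members were also chosen by their mean over the other 8 libraries, and 3KR was then highest in 25 of 26 and 5 of 8. The H/ACA exception was Snora78, at 98.1 FPKM in RR and 61.7 FPKM in 3KR, and the C/D exceptions were Snord8, Snord104 and Snord32a. Among the day 33 libraries alone, 1KR was lowest or tied for lowest in 21 of the 29 and 7 of the 9.

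The share of a library's summed FPKM held by each class showed the same libraries apart. At day 28 the H/ACA class held 0.667% in 1K, 0.564% in 2K, 0.613% in 3K and 0.868% in R. At day 33 it held 0.595% in 1KR, 1.18% in 2KR, 2.63% in 3KR and 1.42% in RR, and in C it held 1.27%. The C/D class held 0.398% in 1K, 0.639% in 2K, 0.630% in 3K and 0.672% in R, then 0.473% in 1KR, 0.997% in 2KR, 3.20% in 3KR and 1.27% in RR, and 1.22% in C. Thus the 3KR share was 1.85 times the RR share for H/ACA and 2.51 times for C/D, and the 1KR share was 0.419 and 0.372 times the RR share. The ratios depend on the abundant members. Without the 10 of highest mean in each class, the 3KR share was 2.97 and 3.95 times the RR share, and the C/D share of 1KR was 2.73 times that of RR, the other direction. Both of these C/D ratios rest on very few sparse genes. What remained was Snord23 (18.4 FPKM, 1 fragment) and Snord14c (11.2 FPKM) in 3KR, Snord83b (14.9 FPKM) in 1KR and Snord60 (5.42 FPKM) in RR. Every day 28 library, 1KR and 2KR lay below C in both classes, with 2KR the nearest to C. In these bulk libraries a smaller number of snoRNA-rich cells and less snoRNA per cell cannot be told apart.

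**Figure D3:**
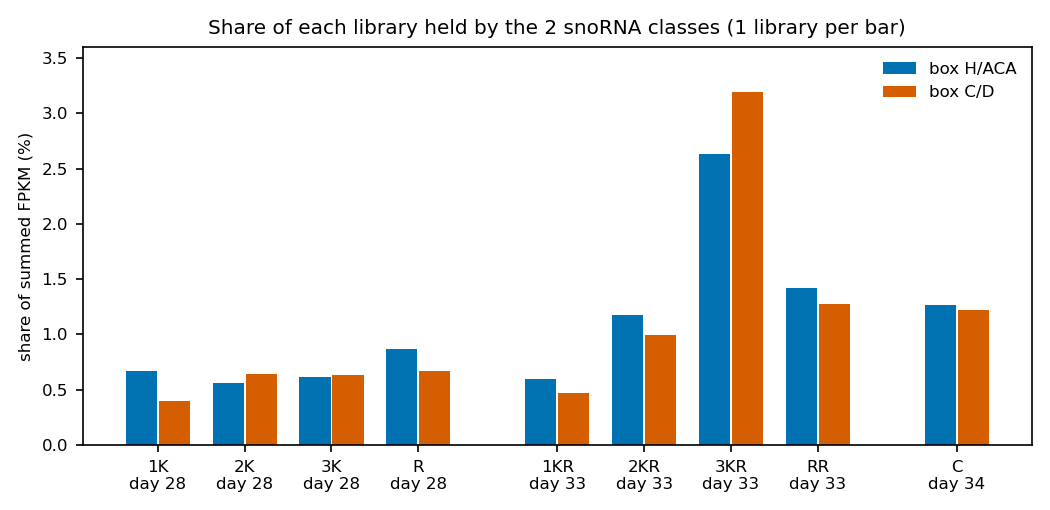
Share of each library's summed FPKM (%, bars from 0) held by H/ACA (blue) and C/D (orange) members, with 1 library per condition and no error bars. The 3KR library reached 2.63% and 3.20%, the day 28 libraries and 1KR stayed under 0.9%, and RR, 2KR and C lay between.

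In recovered fragments per 1000000, which need no FPKM length correction, the H/ACA members between 101 and 260 nt held 612 in 3KR and 277 in RR, and the C/D members of that length 848 in 3KR and 208 in RR. For 1KR the values were 113 for H/ACA and 55.7 for C/D. C/D members exceeded H/ACA members in summed FPKM in 2K, 3K and 3KR (ratios of 1.13, 1.03 and 1.21) and lay below them in the other 6 libraries (0.597 to 0.965). Without Snord17 the ratio was under 1 in all 9 libraries. In recovered fragments the order differed in 2K, with 82.4 per 1000000 for C/D and 115 for H/ACA, and in 3K, with 66.2 and 109.

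Beside these shares, all GENCODE small RNA types together held 49.7% of summed FPKM in 3KR and 25.3% in RR, and 14.1% to 25.6% in the other libraries. Spliceosomal RNA (snRNA) genes held 13.8% in 3KR and 3.66% in RR. The 2 snoRNA classes made up 11.7% of the small RNA total in 3KR and 10.6% in RR. Vaultrc5, the vault RNA, measured 22427 FPKM in 3KR and 3379 in RR, and Rnu12, the U12 spliceosomal RNA, 5017 and 1146. Genes of GENCODE type rRNA held 1.24% in 3KR and 1.70% in RR. The part of this general small RNA level and of the shallow depth of 3KR in its snoRNA values was not tested.

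Refeeding after the diet lacking all 3 nutrients was compared with the normal diet at day 33 (3KR against RR), as log2(FPKM + 0.5) over members with at least 1 FPKM in either library. The H/ACA median difference was 2.62 and the C/D median 2.12, against 0.03 over all 18263 genes. At least 2-fold higher in 3KR were 28 of 35 H/ACA members and 7 of 11 C/D members, where 11.4% of all genes were as high. Of these members, 7 H/ACA and 3 C/D were listed at 0 in RR and entered only through 3KR, so that they had to be higher there. Among members at 1 FPKM or more in both libraries the medians were 1.85 and 1.69, and 21 of 28 H/ACA and 4 of 7 C/D members were at least 2-fold higher, where 7.2% of all genes measured so were. At least 2-fold lower were 0 H/ACA members and 2 C/D members (Snord8 and a member near its floor, Snord60, at 0 in 3KR and 5.42 FPKM in RR), where 9.73% of all genes were as low. For the 12 members with a mean over 100 FPKM the median was 1.92, with 9 at least 2-fold higher and 0 lower.

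Small RNA genes of like length outside both classes had smaller medians, in sets that were not matched for level. Those of 120 to under 140 nt had a median of 0.92 and those of 140 to 260 nt a median of 0.93, while members of 120 to under 140 nt had one of 2.62 and members from 140 nt upward one of 2.12. The rows of GENCODE snoRNA type that carry other names had a median of 0.94 (180 genes) and snRNA genes one of 0.96. The 72 miRNA genes had a median of -0.02, with 26 at least 2-fold higher and 33 lower. Protein-coding genes centred on 0.00. A list of abundant small RNAs, which holds Vaultrc5, Rnu12 and also the mRNA Lars2, lay nearer the members. Its median was 1.77 over 24 entries, against 1.92 for the 12 members averaging over 100 FPKM. Of those entries 15 were at least 2-fold higher and 3 lower, where 11.4% of all genes were as high and 9.73% as low. These sets were compared as descriptions of a pair of libraries, and sparse genes of few fragments widen all of them. Among sparse members, Snora3 measured 275 FPKM in 3KR and was listed at 0 in RR, and Snora33 measured 100 FPKM in 3KR and was likewise listed at 0 in RR.

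Refeeding after methionine deficiency gave the opposite direction (1KR against RR). The H/ACA median was -0.85 and the C/D median -1.20, against -0.01 over all genes. In 1KR 13 of 30 H/ACA and 5 of 10 C/D members were at least 2-fold lower, where 3.51% of all genes were. At least 2-fold higher were 4 and 2, where 2.47% were as high. Listed at 0 in RR, and so fixed as higher in 1KR, were 2 H/ACA and 2 C/D members. Listed at 0 in 1KR, and so fixed as lower there, were 3 and 2. Among members at 1 FPKM or more in both libraries, 9 of 24 H/ACA and 3 of 6 C/D members were at least 2-fold lower, where 1.4% of all genes measured so were. All 12 members with a mean over 100 FPKM were lower in 1KR, with a median of -1.18. Snord17 stood at 0.218 times its RR value and Snora73b at 0.310 times, with Snora81 the nearest to RR at 0.861 times. Non-member small RNA genes were lower too, with medians of -0.50 at 120 to under 140 nt and -0.78 at 140 to 260 nt. Of these genes 84 of 191 and 75 of 177 were at least 2-fold lower, and 48 and 30 were as much higher. The lower shares of the members were thus near those of other small RNA genes of like length. The liver marker list had a median of 1.94 in this comparison, and likewise 2.12 in 2KR against RR and 2.19 in 3KR against RR. Its shares of summed FPKM were 0.226% in 1KR and 0.242% in RR. Apoc3 alone measured 1399 of the list's 1607 FPKM in 1KR and 1586 of 1706 in RR. The part of the liver markers in the result was not tested.

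In refeeding after tryptophan and niacin deficiency (2KR against RR) the medians were -0.13 for H/ACA and -0.45 for C/D, against -0.04 over all genes. Of 29 H/ACA members, 5 were at least 2-fold higher and 4 lower, and of 9 C/D members, 1 was higher and 2 lower. Of all genes 2.67% were as high and 3.67% as low. The C/D members so called were Snord104, listed at 0 in RR, and Snord32a and Snord60, listed at 0 in 2KR. Their direction was thus fixed by the floor. Among H/ACA members 1 was listed at 0 in 2KR and 1 in RR. Of the 12 abundant members 11 were lower in 2KR, with a median of -0.28 and 0 at least 2-fold apart, and Snord17 was the farthest from RR, at 0.581 times.

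**Figure D4:**
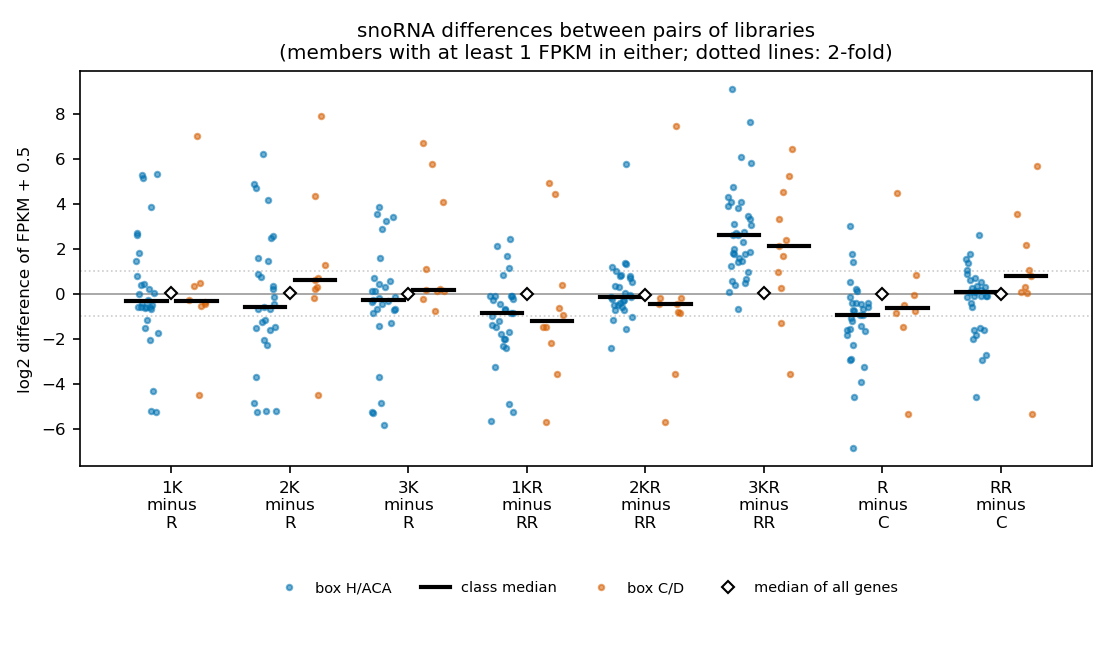
Log2 difference of FPKM + 0.5 (y axis) for each member with at least 1 FPKM in either library of the pair, in 8 comparisons (x axis, first library minus second), with H/ACA in blue, C/D in orange, class medians as black bars and the median of all genes as a diamond. Both class medians were above 2 in 3KR minus RR and below -0.8 in 1KR minus RR, while the median of all genes stayed near 0 throughout.

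At day 28 the class medians of the deficient libraries lay within 0.63 of the normal diet on the log2 scale. In 1K against R the medians were -0.33 (H/ACA) and -0.32 (C/D), in 2K against R -0.58 and 0.63, and in 3K against R -0.28 and 0.19, with medians of all genes of 0.03, 0.02 and 0.00. Members at least 2-fold apart were found in both directions. For 1K they were 8 H/ACA members and 1 C/D member higher and 7 and 1 lower, where 7.17% of all genes were as high and 8.63% as low. For 2K they were 8 and 3 higher and 12 and 1 lower, where 14.7% were as high and 14.1% as low. The 12 lower H/ACA members were 41.4% of the 29 that passed. Non-member small RNA genes of like length were as low about as often in 2K. Of those of 120 to under 140 nt, 83 of 209 were at least 2-fold lower and 61 higher. At 140 to 260 nt, 80 of 182 were lower and 39 higher. With 1 FPKM required in both, 7 of 19 H/ACA and 0 of 6 C/D members were as low, where 9.95% of all genes were. For 3K, 6 and 4 members were at least 2-fold higher and 7 and 0 lower. Of all genes 11.6% were as high there and 13.4% as low. Listed at 0 in R were 6 H/ACA members and 1 C/D member for 1K, 5 and 2 for 2K and 5 and 3 for 3K. They entered only through the deficient library, so that they had to be higher there. Listed at 0 in the deficient library, and so lower there by the same rule, were 3 and 1, 5 and 1, and 5 and 0.

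Few abundant members were at least 2-fold apart at day 28. In 2K, Snora81 stood at 2.79 times its R value and Snord118 at 2.47 times, on 157 and 28 fragments, while Snora57 stood at 0.327 times and Snora44 at 0.450 times, each on 9 fragments. Pancreatic acinar genes held 7.01% of summed FPKM in 2K and 9.47% in 3K, with 25 of 26 markers at 1 FPKM or more, against 0.00762% in 1K and 0.0232% in R. In 2K, stomach markers (12 of 12 measured) held 2.36% and liver markers (15 of 15) 5.04%, against 0.00231% and 0.0735% in R. Epithelial markers (14 of 14 in every library) held 0.529% in 2K and 0.941% in 3K, against 2.40% in 1K and 2.80% in R. The part of this other tissue in the snoRNA values of 2K and 3K was not tested.

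DSS on the normal diet at day 28 went with lower snoRNA values than in the control (R against C). The medians were -0.92 for H/ACA and -0.62 for C/D, against 0.01 over all genes. In R 14 of 31 H/ACA and 2 of 8 C/D members were at least 2-fold lower, where 3.22% of all genes were. As much higher were 3 and 1, where 4.43% of all genes were. Of non-member small RNA genes of 120 to under 140 nt, 74 of 220 were as low and 54 as high. At 140 to 260 nt, 60 of 194 were as low and 42 as high. Among members at 1 FPKM or more in both libraries 7 of 24 and 1 of 6 were at least 2-fold lower, where 1.2% of all genes measured so were. All 12 abundant members were lower in R, from 0.361 times (Snord17) and 0.371 times (Snora23) to 0.975 times (Snord22). At day 33 this was not so (RR against C), with medians of 0.09 and 0.82. There 5 of 31 H/ACA and 4 of 9 C/D members were at least 2-fold higher, where 6.71% of all genes were. As much lower were 8 and 1, where 5.81% were. Listed at 0 in C, and so fixed as higher in RR, were 0 H/ACA and 2 C/D members. Listed at 0 in RR, and so fixed as lower there, were 3 and 1. With 1 FPKM required in both libraries the medians of RR against C were 0.12 and 0.57. Comparisons with R and with RR share the C library, and the days of collection differ from that of C.

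Between days on the normal diet (RR against R), the medians were 1.03 for H/ACA and 1.32 for C/D. Of 29 H/ACA and 9 C/D members, 16 and 5 were at least 2-fold higher in RR, where 5.42% of all genes were, and 4 and 1 lower, where 5.29% were. With 1 FPKM required in both libraries, 11 of 23 and 3 of 6 were at least 2-fold higher, where 3.91% of all genes were. All 12 abundant members were higher at day 33, from 1.41 times (Snora74a) to 3.48 times (Snord17). The deficient diets differed in this step. For 3KR against 3K the medians were 3.75 and 2.18. There 34 of 35 H/ACA and 7 of 12 C/D members were at least 2-fold higher, where 13.3% of all genes were. As much lower were 0 and 3, where 11.7% were. Listed at 0 in 3K were 11 H/ACA and 2 C/D members, and in 3KR 0 and 2. Among members at 1 FPKM or more in both libraries the medians were 2.92 and 2.18. Of these members 23 of 24 and 5 of 8 were at least 2-fold higher, where 9.57% of all genes measured so were. Snord118 stood at 25.9 times its 3K value and Snora81 at 25.3 times. For 1KR against 1K the medians were -0.08 and 0.17, with 7 of 30 and 3 of 9 members higher (6.57% of all genes) and 9 and 1 lower (7.79%). For 2KR against 2K they were 0.89 and -0.11, with 14 of 30 and 0 of 8 members higher (13.5%) and 3 and 1 lower (19%). Of the members compared, 3 H/ACA and 2 C/D were listed at 0 in 1K, and 6 and 0 in 2K. In 1KR 3 and 1 were listed at 0, and in 2KR 2 and 1.

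Most members lie within another gene of the same strand, and the snoRNA and its host were set side by side. Of the 141 members, 134 had such a host in GENCODE M21, 70 of them in an intron and 64 overlapping an exon of a host transcript, where reads of the host can fall on the snoRNA. Of the 38 members averaging 5 FPKM or more, 32 lay in 30 distinct hosts. In 3KR against RR these 32 snoRNAs had a median of 1.81 and their hosts a median of 0.28. There were 22 snoRNAs and 1 host at least 2-fold higher, and the snoRNA exceeded its host's difference in 29 of 32 cases. Among the 29 snoRNAs at 1 FPKM or more in both libraries the median was 1.77, with 19 at least 2-fold higher and 26 above their host's difference.

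Single pairs are given here, with hosts named after their values were seen. Snx5, a sorting nexin, measured 124 FPKM in 3KR and 72.7 in RR while Snord17 in its intron stood 4.36 times higher. Eif4a2, a translation initiation factor, measured 89.9 FPKM in 3KR and 137 in RR while Snora81 within it stood 15.2 times higher. Ipo7, an importin, measured 28.3 FPKM in 3KR and 23.3 in RR while Snora23 in its intron stood 6.85 times higher. Rps3 measured 244 FPKM in 3KR and 230 in RR, with Snord15a and Snord15b both far higher in 3KR. Not every pair was like this. Snhg1 measured 25.6 FPKM in 3KR and 18.6 in RR while Snord22 within it stood only 1.21 times higher. Snhg3 measured 7.39 FPKM in 3KR and 11.9 in RR while Snora73b within it stood at 1.06 times. In 1KR against RR the 32 snoRNAs had a median of -0.78 and their hosts one of 0.08, with 13 snoRNAs and 0 hosts at least 2-fold lower (10 of the 26 snoRNAs at 1 FPKM or more in both).

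**Figure D5:**
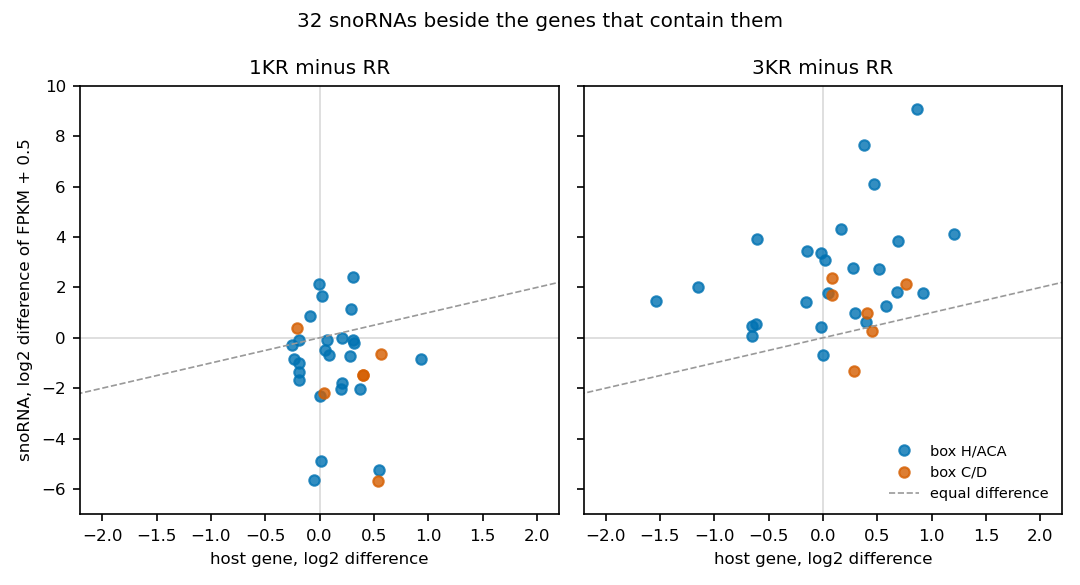
Log2 difference of the host gene (x axis) against that of the snoRNA within it (y axis) for 32 members averaging 5 FPKM or more, in 1KR minus RR (left) and 3KR minus RR (right), with H/ACA in blue, C/D in orange and the dashed line marking equal differences; the axes have different ranges. Hosts kept between -1.54 and 1.21 in 3KR minus RR, while 29 of 32 snoRNAs lay above the line.

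The mRNAs of the proteins that bind snoRNAs did not differ to that degree, and protein amounts were not measured. Of the C/D core proteins, Fbl (fibrillarin) measured 24.0 FPKM in 3KR and 21.7 in RR and Nop56 70.8 and 44.9, and the 4 measured had a median log2 difference of 0.34. Of the H/ACA core proteins, Nhp2 measured 14.3 FPKM in 3KR and 11.8 in RR, Dkc1 (dyskerin) differed by 0.65 on the log2 scale, and the 4 measured had a median of 0.38. None of these 8 was 2-fold apart in 3KR against RR or in 1KR against RR. The 14 assembly factors had a median of 0.08 in 3KR against RR, and the 33 ribosome biogenesis genes a median of 0.22 with 1 at least 2-fold higher. In 1KR against RR those medians were -0.10 and 0.00.

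A test was possible only across the 8 DSS libraries with 3 factors crossed (day, lack of methionine, and lack of tryptophan with niacin), fitted with limma over 17577 genes, among them 35 H/ACA and 13 C/D members. Its residual comes from the interaction of the 2 deficiencies, assumed to be 0, and not from replicates. A lack of calls is therefore not read as a lack of difference. No member passed a Benjamini-Hochberg adjusted p of 0.05 in any of 7 terms. Over all genes, 25 passed for day (0.142%), 33 for tryptophan and niacin deficiency at day 28 (0.188%), 26 for its difference between days (0.148%) and 0 for each of the other 4 terms (0%). At an unadjusted p under 0.05 there were 7 members for day (14.6%, against 15.4% of all genes) and 6 for tryptophan and niacin deficiency at day 28 (12.5%, against 19.2%), shares at or below those of all genes. For methionine deficiency at day 28 there were 3 (6.25%, against 3.20%). The day 33 terms compare mice by their diet before refeeding at day 28. They had 4 members for tryptophan and niacin (8.33%, against 2.21%) and 2 for methionine (4.17%, against 1.24%). The difference between days had 5 for the tryptophan and niacin effect (10.4%, against 9.03%) and 3 for the methionine effect (6.25%, against 2.11%).

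The day 33 minus day 28 estimate averaged over diets had a median of 1.25 for H/ACA and 1.03 for C/D members. The median over all genes was -0.03, and the estimate was above 0 for 43 of 48 members. Some members passed the filter through a single DSS library, which fixed the sign of their day estimate. Snora65, Snord23 and Snord14c, among others, were above 0 in 3KR alone and had to be positive. Snora20 and Snord14d were above 0 in 2K alone and had to be negative. Snora24, a sparse member, had the lowest p for day, with a limma estimate of 3.27 (SE 0.46, adjusted p = 0.253). The lowest adjusted p of any member was 0.156, for Snora47 in tryptophan and niacin deficiency at day 28 in the limma fit, with an estimate of 4.07 (SE 0.88) that rests on at most 3 fragments per day 28 library. The day 33 estimates of the tryptophan and niacin effect had an H/ACA median of 1.70 and were above 0 for 44 of 48 members. The H/ACA median of 2KR minus RR was nevertheless -0.13. Members above 0 in 3KR alone had to be above 0 in these estimates too. By the construction of this fit, a value of 3KR apart from both 1KR and 2KR enters both diet estimates at day 33 as well as the residual.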

How the data were processed

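Per the labels' protocols, ribosomal RNA was removed with Ribo-Zero Plus and the stranded TruSeq preparation skipped the selection of polyadenylated RNA. The submitters' processing notes name HISAT2, Cuffdiff 2.2.1 and GRCm38. The sources used here do not give the annotation. The deposited table holds FPKM without counts, per the file headers. Gene types, lengths, hosts and sequences came from GENCODE M21.

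The FPKM of 1 fragment was recovered per library and length (101 to 260 nt) from repeated low values. Of 194 member values of 0.5 to 20 fragments, 134 (69.1%) came out within 0.1 of a whole number, so recovered fragments serve as a guide to support.

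Libraries were compared on the log2 scale, as differences of log2(FPKM + 0.5) from the deposited FPKM, for genes at 1 FPKM or more in either. A host is the same-strand gene of highest mean that contains the member. The factorial was fitted with limma 3.58.1 (R 4.3.3, mean-variance trend, 2 residual degrees of freedom) to genes averaging 1 FPKM or more, and was tested on simulated data. Figures used matplotlib 3.10.9.

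Members, gene lists and comparisons were chosen with earlier results of these data known. Members named are, per class, the 12 of highest mean, those with the 5 largest differences each way in a main comparison at 5 FPKM or more, and a list of well-known snoRNAs. Hosts were named after their values were seen. Alternatives were other pseudocounts, floors, scalings, share denominators and fits.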

Additional observations from a re-analysis of the deposited data

Results flagged for a closer look

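Results for the same diet pointed in opposite directions at day 28 and day 33 in some class values, each from 1 pair of libraries, and the differences between days were not tested at the level of a class. The H/ACA median log2 difference was -0.28 in 3K minus R and 2.62 in 3KR minus RR, and the H/ACA share was 0.706 times that of R in 3K and 1.85 times that of RR in 3KR. The C/D share was 0.937 times that of R in 3K and 2.51 times that of RR in 3KR. The C/D median was 0.63 in 2K minus R and -0.45 in 2KR minus RR. The factorial limma fit, which tests such a difference between days gene by gene, called 0 of 48 members for either diet factor, with 3 members for methionine (6.25%, against 2.11% of all genes) and 5 for tryptophan and niacin (10.4%, against 9.03%) at an unadjusted p under 0.05. With 1 library in each group no single library could be set against its own group, and the fit had no replicates to measure its error.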

How the results depend on the processing

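Without the 10 members of highest mean, the share in 3KR became 2.97 times that of RR for H/ACA and 3.95 times for C/D, and the C/D share in 1KR became 2.73 times that of RR, against 0.372 times with all members. That last ratio rests only on Snord83b, at 14.9 FPKM in 1KR, and Snord60, at 5.42 FPKM in RR. The C/D ratio of 3.95 rests only on Snord23 and Snord14c, at 18.4 and 11.2 FPKM in 3KR, against the same Snord60. Requiring 1 FPKM in both libraries, chosen after seeing the data, gave an H/ACA median of 1.85 in 3KR minus RR, against 2.62. The other 127 alternative class medians stayed within 1.5-fold of the values reported, and 0 fit alternatives called a member, with each of the 8 libraries left out in turn included. Medians near 0 did change sign. The H/ACA median of RR minus C, 0.09, ranged from -0.16 to 0.12, and the C/D median of 3K minus R, 0.19, ranged from -0.07 to 0.19. Scaling to genes outside the GENCODE small RNA types, chosen after seeing the data, gave a median of all genes of -0.46 in 2K minus R, against 0.02 as deposited. The 3KR minus RR medians ranged from 1.85 to 2.74 for H/ACA and from 1.69 to 2.24 for C/D. With diet as a block over the 4 pairs of libraries across days, added after seeing the data, limma again called 0 of 48 members for day (lowest adjusted p = 0.316), with 10 at an unadjusted p under 0.05 (20.8%, against 15.2% of all genes). No block was possible within a day because each condition has 1 library. Depth limits the sparse members, since 1 fragment on 130 nt is worth 4.44 FPKM or more.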

Other observations

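The rows of GENCODE snoRNA type outside the Snora and Snord names numbered 1367, of which 290 were above 0 in some library. They held 8.48% of summed FPKM in 3KR and 2.93% in RR, more than both named classes together (5.83% in 3KR and 2.69% in RR). In 1KR they held 1.37% and in C 3.76%.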
